A study of Mus musculus with 14 samples.

Results

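The genes described here make cholesterol and fatty acids or control that synthesis. They were chosen by name from a list of 35 symbols, and 34 of these occur in the table of 23174 gene rows. Msmo1 is the present symbol of the gene that the table carries as Sc4mol, so no gene is lost by it. Hmgcs1, a synthase of the mevalonate branch, fills 2 rows on an unplaced part of chromosome 13. It is listed at 0 in all 14 libraries, so it was not analysed. The other 33 members passed the filter on low values in every comparison: 6 of the mevalonate branch, 11 from squalene to cholesterol, 5 of the SREBP control system, 3 of sterol transport and 8 of fatty acid synthesis.

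Cholesterol is built from acetyl-CoA through mevalonate, farnesyl diphosphate and squalene. The transcription factors SREBP-2 and SREBP-1 (genes Srebf2 and Srebf1) switch these enzymes on. They are escorted out of the endoplasmic reticulum by Scap when sterol is low and held there by Insig1 and Insig2 when sterol is high. Insig1 is itself an SREBP target, and Abca1 and Abcg1, which export cholesterol, are targets of the oxysterol receptors (LXR). Extraembryonic endoderm forms the yolk sac, a tissue known for taking up and passing on lipids.

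Messenger RNA was measured by polyA RNA-seq in 14 mouse libraries, with levels as FPKM (fragments per kilobase of transcript, scaled to the mapped fragments of the library). Embryonic stem cells (ESCs) of strain 129S1/SVImJ came from 4 lines, each with 1 library per stage: WT3 (wild type), KO3.34 and KO2.6 (both Zfp281KO) and Rescue3.34 (line 3.34-/- with Zfp281 put back). ESCs were sampled undifferentiated, at cXENp1 (passage 1, after XEN medium with 0.01 µM all-trans retinoic acid plus 10 ng/mL activin A for 48 hours) and at cXENp3 (passage 3, after an intervening passage on feeder fibroblasts and a return to gelatin). XEN5 (129S1/SVImJ) and XENB1 (129S1) are wild-type extraembryonic endoderm stem cell lines and give 1 library each. WT3 and Rescue3.34 are called the Zfp281-present lines. Where a pair of values is given without names, the first is WT3, KO3.34 or XENB1 and the second Rescue3.34, KO2.6 or XEN5. WT and rescue rest on 1 line each, KO3.34 and Rescue3.34 share their parent line, nothing says that libraries of a line came from separate cultures, and p-values measure only the spread between these libraries.

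Zfp281 itself was between 25.1 and 38.6 FPKM in the Zfp281-present lines, at most 3.96 in KO3.34, at most 0.559 in KO2.6, and 10.6 and 12.5 in the XEN lines. FPKM sums ran from 424405.6 to 718138.4 per library, and the depth behind them is unknown. The 8 pluripotency markers summed to between 6632 and 9547 FPKM in ESCs and the 8 XEN markers to between 2775 and 4076 in the XEN lines and both KO libraries at cXENp3. KO2.6 ESCs stood apart with 70.2 FPKM of XEN markers, against at most 15.4 in the other ESCs. Rescue3.34 at cXENp3 stood apart with 1265 FPKM of the 8 feeder fibroblast markers, all 8 of them at 1 FPKM or more, against 34.2 in WT3, 280.1 and 366.4 in the KO lines and 643.3 and 584.6 in the XEN lines. KO3.34 at cXENp3 kept 917.5 FPKM of pluripotency markers, against 187.0 in KO2.6. In bulk samples, fewer cells of a type and less RNA per cell cannot be told apart. Library descriptions begin with JH for ESCs of all lines but KO2.6 and with XH for the other 11 libraries. What the prefix marks is not stated.

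**Figure D1:**
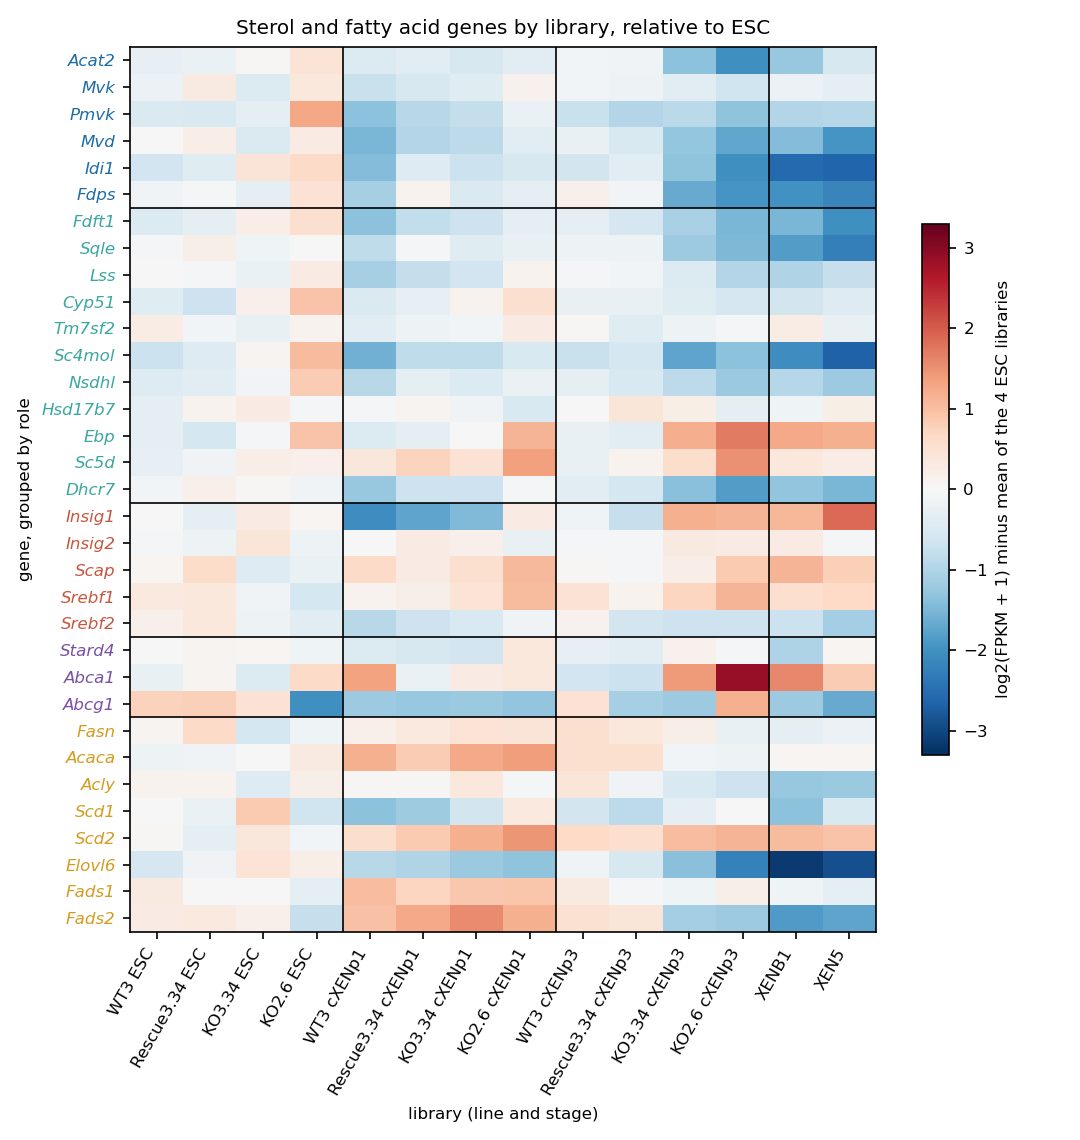
Level of each of the 33 members (rows, coloured by role) in each of the 14 libraries (columns), as log2(FPKM + 1) minus the mean of the 4 ESC libraries. Fdps, Sqle, Idi1 and Elovl6 are blue in both KO libraries at cXENp3 and in the XEN lines, while Ebp, Sc5d, Insig1 and Abca1 are red in both KO libraries there.

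Established XEN lines were compared with ESCs to place the members at the start and the end of the differentiation. Cholesterol synthesis enzymes were lower in XEN: 4 of 6 in the mevalonate branch and 5 of 11 from squalene to cholesterol fell, and 1 of these 17, Ebp, rose. Of all 33 members, 18 were called (adjusted p under 0.05 over all genes tested), 5 higher and 13 lower, against 41.9% of 12372 genes called. By direction 22.2% of genes were higher and 19.7% lower. The median member changed by -0.87 on the log2(FPKM + 1) scale, and the median of all genes by -0.02.

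Idi1, which isomerises isopentenyl diphosphate, had 9.11 and 10.9 FPKM in Zfp281-present ESCs and 20.0 and 23.5 in KO ESCs, against 1.66 and 1.55 in the XEN lines. Both XEN lines lay below every ESC library, by 9.88-fold in mean FPKM (log2 change -2.60, SE 0.40, adjusted p 0.00169). Fdps, which makes farnesyl diphosphate, ran from 96.3 to 171 FPKM in ESCs and had 29.6 and 26.1 FPKM in XENB1 and XEN5 (log2 change -2.09, SE 0.25, adjusted p 0.000577). Sqle, the squalene epoxidase, ran from 35.5 to 45.2 FPKM in ESCs and had 10.3 and 7.45 FPKM in the XEN lines (log2 change -2.05, SE 0.22, adjusted p 0.000348). The groups did not overlap for any of these 3 genes, which were named for their large changes. Here and below, such statements only describe the levels of named genes. The share of all genes without overlap was not computed. Sc4mol, the sterol C4-methyl oxidase, ran from 49.2 to 168 FPKM in ESCs, the highest in KO2.6, and had 18.8 and 11.9 FPKM in XENB1 and XEN5 (log2 change -2.36, SE 0.47, adjusted p 0.00544). Fdft1, the squalene synthase, went from 30.1 to 60.5 FPKM across ESCs to 13.9 and 9.44 (log2 change -1.76), and Mvd from 25.6 to 43.1 to 12.6 and 8.62 (-1.68). Dhcr7 (-1.41), Acat2 (-0.89) and Lss (-0.87) also fell, and Acat2 was the one of these whose loss was uneven, at 20.0 FPKM in XENB1 and 33.4 in XEN5.

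Fatty acid genes split. Elovl6, which elongates saturated chains, went from 27.5 to 55.6 FPKM across ESCs to 3.67 and 4.59 in XENB1 and XEN5, the largest change of any member here (log2 change -3.02, SE 0.31, adjusted p 0.000253). Fads2, the delta-6 desaturase, with 4.83 and 5.36 FPKM in the XEN lines, and Acly, the ATP citrate lyase, fell by 1.81 and 1.24 on the log2 scale. Scd2, a stearoyl-CoA desaturase, rose from 82.9 to 134 FPKM in ESCs to 214 and 199 (log2 change 0.98, SE 0.23, adjusted p 0.0102). Fasn (log2 change -0.25, adjusted p 0.563) and Acaca (0.05, adjusted p 0.880), the core synthase and carboxylase, did not pass.

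Of the 5 control genes 2 rose and 1 fell. Insig1 had 44.1 and 35.7 FPKM in Zfp281-present ESCs, 53.3 and 46.5 in KO ESCs, and 97.0 and 164 in the XEN lines (log2 change 1.48, SE 0.27, adjusted p 0.00355). Both XEN values exceeded every ESC value. Srebf2 ran from 53.4 to 86.4 FPKM in ESCs and had 41.3 and 31.1 in XENB1 and XEN5 (log2 change -0.91, SE 0.255, adjusted p 0.0232). Scap had at most 18.6 FPKM in ESCs and 27.3 and 21.3 in the XEN lines (log2 change 0.96, SE 0.32, adjusted p 0.0443). Srebf1 (0.61, adjusted p 0.143) and Insig2 (0.12, adjusted p 0.729) did not pass. Abca1 rose from 0.967 to 3.17 FPKM across ESCs to 7.14 and 3.81 (log2 change 1.21, SE 0.376, adjusted p 0.0339). Ebp rose from 12.6 to 37.6 FPKM across ESCs to 47.0 and 44.6 (log2 change 1.21, SE 0.398, adjusted p 0.0414), with KO2.6 the highest ESC library for both genes. KO2.6 is the only ESC line with the prefix XH of the XEN lines. With the prefix as a term, the change is therefore XEN lines against the KO2.6 ESC library alone. It was then -0.56 for Srebf2, 1.19 for Scap, 0.58 for Abca1 and 0.28 for Ebp, and their calls were lost. For Srebf1, Cyp51, Nsdhl and Pmvk it was 1.195, -1.45, -1.91 and -2.23. Scap and Abca1 were also not called after quantile normalization (adjusted p 0.0717 and 0.0607), nor were Scap, Abca1, Ebp and Acat2 with every gene above 0 kept (adjusted p 0.0637 to 0.0726). The member count was 12 without WT3, against 33.7% of 12189 genes. Without XEN5 or without XENB1, 1 XEN library is left, and calls fell among members and over all genes alike.

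The first step of the induction was measured by setting cXENp1 against ESC in all 4 lines, with line as a block. This comparison shares its ESC libraries with the previous one. Of the 8 fatty acid genes 4 were called higher: Fads2, Acaca, Scd2 and Fads1. Elovl6 was lower in all 4 lines and Scd1 in all but KO2.6, and neither was called. Of all members 6 were called, 5 higher and 1 lower, against 28.5% of 13191 genes called (14.7% higher and 13.8% lower). The median member changed by -0.37, and the median of all genes was 0 to 2 decimals.

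Acaca, the acetyl-CoA carboxylase that commits carbon to fatty acids, ran from 5.13 to 7.36 FPKM in ESCs and from 11.2 to 16.9 at cXENp1 (log2 change 1.16, SE 0.25, adjusted p 0.00979). Fads1, the delta-5 desaturase, ran from 19.4 to 29.8 FPKM in ESCs and from 40.1 to 50.1 at cXENp1 (log2 change 0.89, SE 0.16, adjusted p 0.00529). Every cXENp1 library exceeded every ESC library for both genes. Scd2 behaved the same way, from at most 134 to at least 156 FPKM (log2 change 1.02, SE 0.19, adjusted p 0.00502). Fads2 ran from 11.6 to 25.6 FPKM in ESCs and from 41.1 to 62.2 at cXENp1 (log2 change 1.24, SE 0.35, adjusted p 0.0267). Sc5d, the lathosterol desaturase, rose by 0.74 (SE 0.24, adjusted p 0.046).

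Insig1 was the member called lower at cXENp1. It had 9.95 and 12.6 FPKM in the Zfp281-present lines and 15.6 and 53.6 in the KO lines (log2 change -1.25, SE 0.37, adjusted p 0.0334). It was low in 3 lines and, in KO2.6, above that line's own ESC value of 46.5 FPKM. KO2.6 is also the line whose ESC and cXENp1 libraries share the prefix XH. With the prefix as a term its ESC library alone sets the ESC level, and the Insig1 change was -0.17 and not called. Acaca, Fads2 and Sc5d were likewise not called with that term, which left Scd2 and Fads1.

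None of the 17 sterol enzymes was called lower in the fit that also holds the cXENp3 libraries. With only the ESC and cXENp1 libraries fitted, an alternative added after the data were seen, 14 members were called, 5 higher and 9 lower, against 45.9% of 12724 genes, so the members' share was near that of all genes. The 9 were Insig1, Elovl6 and the sterol enzymes Sc4mol, Mvd, Pmvk, Fdft1, Idi1, Dhcr7 and Lss, with log2 changes of the enzymes between -0.94 and -0.60. Taken by line, the mean log2(FPKM + 1) of the 17 enzymes went from 4.50 to 3.92 (WT3), 4.61 to 4.39 (Rescue3.34), 4.72 to 4.36 (KO3.34) and 5.25 to 4.77 (KO2.6), so it was lower at cXENp1 in all 4 lines. The member count was 2 without KO3.34, against 10% of 12846 genes, and 2 without Rescue3.34, against 9.57% of 12998 genes.

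Loss of Zfp281 was examined within each stage by comparing the 2 KO lines with the 2 Zfp281-present lines. In ESCs no member was called (limma, 0 of 33, with 10 at an unadjusted p under 0.05, as were 20.9% of all genes), against 1.97% of 13191 genes (1.05% higher and 0.917% lower). KO2.6 ESCs stood apart from the other 3 lines for several sterol enzymes. Pmvk, the phosphomevalonate kinase, had 109.9 FPKM there and 31.4 to 36.7 in the other lines. Sc4mol had 168 FPKM, against 49.2 to 86.2 in the other lines, and Sc4mol was called with line as a block (log2 difference 1.13, adjusted p 0.0493). Without KO3.34, so that KO2.6 alone stands for KO, 9 members were called, 6 higher and 3 lower, against 15.5% of 12846 genes. The XEN markers and the prefix of that library move with this difference, and their part in it was not tested.

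At cXENp1 no member was called either (limma, 0 of 33, with 8 at an unadjusted p under 0.05, as were 11.3% of all genes), against 0.485% of genes (0.364% higher and 0.121% lower). KO2.6 again lay highest for Insig1 (53.6 FPKM against 9.95 to 15.6) and for Ebp, the sterol delta8-delta7 isomerase (43.0 FPKM against 13.9 to 19.3). Without KO3.34, Insig1, Ebp, Scd1 and Lss were called higher, against 4.97% of genes called. KO2.6 had 648.3 FPKM of XEN markers at cXENp1, against 92.5 to 112 in the other 3 lines, and the part of this in the result was not tested.

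At cXENp3 the KO lines had less RNA of 7 of the 17 sterol enzymes than the Zfp281-present lines, and more of Ebp, Sc5d, Insig1 and Abca1. Of 33 members 15 were called, 4 higher and 11 lower, against 41.9% of 13191 genes called (22.9% higher and 19.0% lower). The lower ones were Fdps, Acat2, Idi1 and Mvd in the mevalonate branch, Sqle, Dhcr7 and Fdft1 from squalene on, and Fads2, Elovl6, Acly and Acaca of fatty acid synthesis. The median member differed by -0.37 and the median of all genes by 0.01. In the mevalonate branch 4 of 6 genes were lower and 0 higher, and from squalene to cholesterol 3 were lower and 2 higher of 11.

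Fdps (chromosome 3, 88897510 to 88905889, mm9) had 136 and 113 FPKM in the Zfp281-present lines, against 37.4 and 30.6 in the KO lines. Its mean was 3.66-fold higher in the Zfp281-present lines (log2 difference -1.84, SE 0.37, adjusted p 0.00405), and both KO values stood close to the 29.6 and 26.1 FPKM of the XEN lines. Acat2, the cytosolic acetoacetyl-CoA thiolase, had 45.6 and 44.4 FPKM in the Zfp281-present and 18.6 and 11.2 in the KO lines (log2 difference -1.57, SE 0.24, adjusted p 0.00107). Both KO values lay below the lowest ESC value of 40.0 FPKM. Sqle had 35.2 and 34.8 FPKM against 16.6 and 13.5 (log2 difference -1.17, SE 0.25, adjusted p 0.00555). Dhcr7, the last reductase of the Kandutsch-Russell route, had 22.5 and 19.2 FPKM against 10.5 and 7.35 (log2 difference -1.16, SE 0.28, adjusted p 0.00969). Idi1 had 9.27 and 11.1 FPKM against 5.27 and 2.84 (log2 difference -1.18, SE 0.34, adjusted p 0.0206). For these 5 genes every KO value lay below every ESC value. The Zfp281-present values lay within the ESC range for Fdps, Acat2 and Idi1, and below it for Sqle and Dhcr7.

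Not every step fell. Ebp (X chromosome, 7762457 to 7770638, mm9) had 16.0 and 15.0 FPKM in the Zfp281-present lines and 45.5 and 65.4 in the KO lines (log2 difference 1.75, SE 0.39, adjusted p 0.00652). Both KO values were near or above the 47.0 and 44.6 FPKM of XENB1 and XEN5. Sc5d, which acts just after Ebp in the pathway, had 8.64 and 11.4 FPKM against 16.0 and 31.7 (log2 difference 1.11, SE 0.36, adjusted p 0.0308). The Sc5d difference was not called after quantile normalization (adjusted p 0.0651) or with every gene above 0 kept (adjusted p 0.0528). The other 6 enzymes from squalene to cholesterol did not pass: Sc4mol (-0.89, adjusted p 0.057), Lss (-0.64, adjusted p 0.104), Nsdhl (-0.62, adjusted p 0.145), Hsd17b7 (-0.26, adjusted p 0.482), Cyp51 (-0.23, adjusted p 0.531) and Tm7sf2, a sterol C14-reductase (0.09, adjusted p 0.794). Sc4mol was called lower with line as a block (adjusted p 0.0165) and after quantile normalization (adjusted p 0.0297), and Lss after quantile normalization (adjusted p 0.0442). With the prefix as a term Sc4mol was called too (adjusted p 0.0249). All cXENp3 libraries share 1 prefix, so that term left the Sc4mol difference at -0.89 and changed only the estimated spread.

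Among the fatty acid genes, Fads2 had 29.2 and 27.0 FPKM in the Zfp281-present lines and 8.88 and 8.38 in the KO lines (log2 difference -1.60, SE 0.29, adjusted p 0.00231). Elovl6 had 36.7 and 27.9 FPKM against 15.1 and 7.93 (log2 difference -1.46, SE 0.28, adjusted p 0.00336). Both KO values of each gene lay below all 4 ESC values. Acly and Acaca were lower by 0.74 (adjusted p 0.0359) and 0.65 (adjusted p 0.0326) on the log2 scale, and Acly was not called with line as a block (adjusted p 0.0513); the log2 differences of Scd2, Scd1, Fads1 and Fasn, between -0.46 and 0.58, did not pass.

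Insig1 (chromosome 5, 28397952 to 28405202, mm9) had 39.9 and 25.7 FPKM in the Zfp281-present lines, against 102 and 97.0 in the KO lines (log2 difference 1.61, SE 0.45, adjusted p 0.0177). The KO values reached the 97.0 FPKM of XENB1 and stayed below the 164 of XEN5. Srebf2 had 75.6 FPKM in WT3 but 44.1 in Rescue3.34, close to 41.9 and 41.8 in the KO lines (log2 difference -0.46, SE 0.25, adjusted p 0.174). Srebf1 had 26.7 and 20.5 FPKM against 31.9 and 42.4 (log2 difference 0.63, SE 0.26, adjusted p 0.0773). Its row spans the same interval as that of Rai1, an overlapping gene, and no source used here says that strand was counted, so reads of these 2 genes may not be separated. Scap (0.57, adjusted p 0.15) and Insig2 (0.33, adjusted p 0.293) did not pass; Insig2 stayed between 12.8 and 20.8 FPKM in the 12 libraries of the course.

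Abca1, the cholesterol exporter, had 0.736 and 0.658 FPKM in the Zfp281-present lines and 6.17 and 18.9 in the KO lines, against 7.14 and 3.81 in the XEN lines (log2 difference 2.82, SE 0.58, adjusted p 0.00435). The groups did not overlap, and the KO lines themselves differed by more than the XEN lines did. Abcg1, another sterol exporter, did not pass: it had 8.41 and 2.17 FPKM in the Zfp281-present lines and 1.92 and 14.1 in the KO lines (log2 difference 0.28, adjusted p 0.819).

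The call count at cXENp3 changed with the lines fitted. With 1 line left out a group holds 1 library, and the number called over all genes rose and fell with that of the members. No called member changed sign in any of these fits. Leaving out only the Rescue3.34 cXENp3 library, which has the fibroblast markers, leaves WT3 alone on the Zfp281-present side there. The log2 difference was then -0.84 for Srebf2, 1.30 for Insig1, -1.06 for Idi1 and -0.65 for Acaca.

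**Figure D2:**
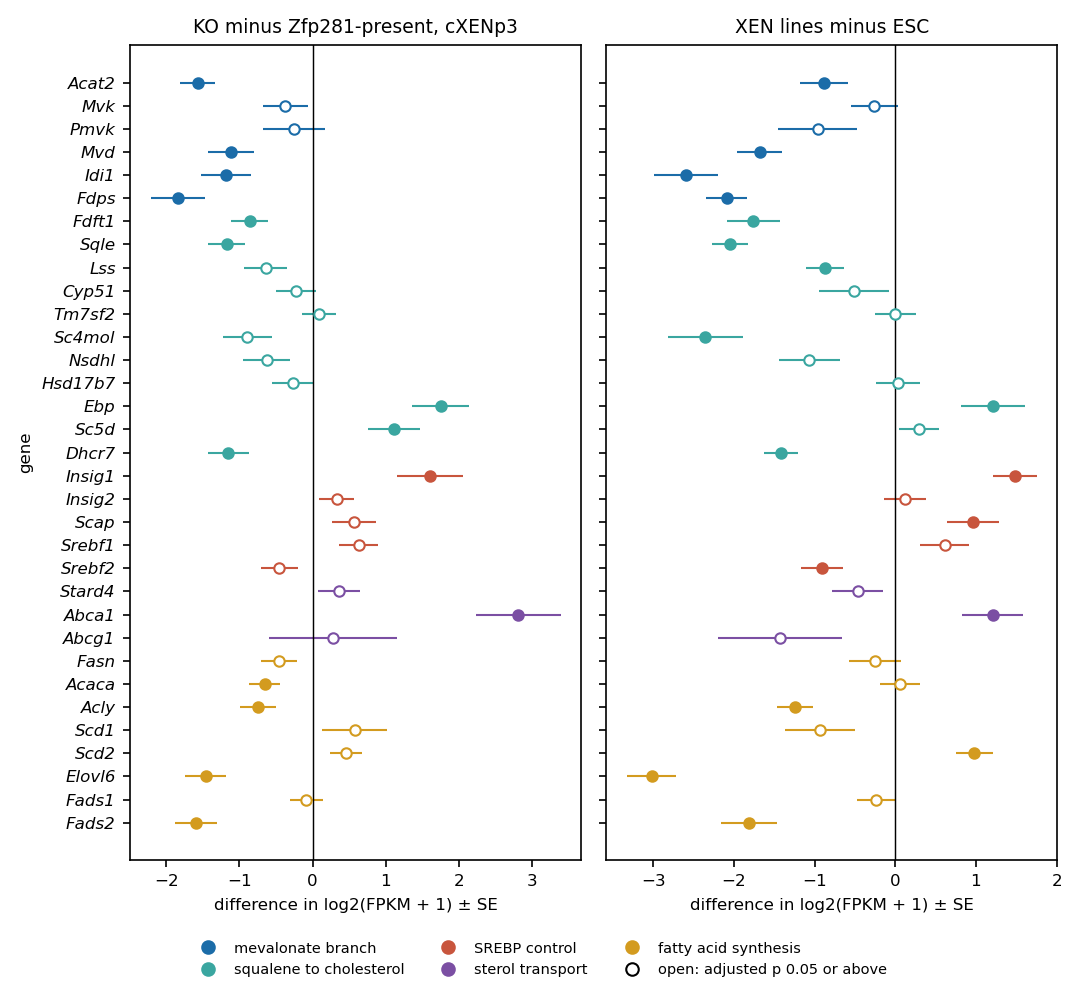
Difference in log2(FPKM + 1) with its SE for each of the 33 members, for KO minus Zfp281-present lines at cXENp3 (left, 2 lines against 2) and for XEN lines minus ESCs (right, 2 against 4). Filled points had an adjusted p under 0.05; the 13 members filled on both sides lie on the same side of 0 in both.

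The KO difference at cXENp3 and the XEN difference use no library in common. Over all 33 members 28 (84.8%) had the same sign in both, against 81.0% of 13354 genes, so the members' share was near that of all genes. The 13 members called in both had the same sign in both. The matching share among all genes called in both was not computed, so these 13 have no background. Between KO lines at cXENp3 and the XEN lines themselves, 1 member was called, against 4.12% of 13386 genes (2.64% higher and 1.48% lower), with 7 members and 20.5% of all genes at an unadjusted p under 0.05. It was Elovl6, at 15.1 and 7.93 FPKM in the KO lines against 3.67 and 4.59 (log2 difference 1.23, SE 0.28, adjusted p 0.0347). That call was lost after quantile normalization (adjusted p 0.0582).

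To show what these genes carry at their start sites, the 200 bases upstream of the annotated start are given for 3 enzymes that were lower and 2 members that were higher in XEN lines. The sequences are RefSeq's for GRCm38.p6, a later build than the mm9 named for the table, and read 5′ to 3′ on the gene's strand. Capitals mark CCAAT boxes on either strand (CCAAT or ATTGG, the motif of NF-Y) and the E-box CACGTG.
Idi1 (chr13:8885406-8885605, plus strand): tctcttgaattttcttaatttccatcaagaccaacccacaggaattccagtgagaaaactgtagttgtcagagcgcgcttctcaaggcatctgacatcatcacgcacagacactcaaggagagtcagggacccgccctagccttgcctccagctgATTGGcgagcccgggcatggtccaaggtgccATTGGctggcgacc
Mvd (chr8:122443423-122443622, minus strand): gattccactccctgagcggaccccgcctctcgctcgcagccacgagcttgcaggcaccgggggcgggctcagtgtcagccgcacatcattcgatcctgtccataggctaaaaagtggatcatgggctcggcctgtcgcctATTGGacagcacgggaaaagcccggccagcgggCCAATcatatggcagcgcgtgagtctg
Msmo1, listed as Sc4mol (chr8:64733579-64733778, minus strand): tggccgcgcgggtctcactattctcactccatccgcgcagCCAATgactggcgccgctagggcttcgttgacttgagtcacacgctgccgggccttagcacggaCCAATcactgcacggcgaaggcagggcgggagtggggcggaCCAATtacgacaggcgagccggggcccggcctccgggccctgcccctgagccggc
Ebp (chrX:8193513-8193712, minus strand): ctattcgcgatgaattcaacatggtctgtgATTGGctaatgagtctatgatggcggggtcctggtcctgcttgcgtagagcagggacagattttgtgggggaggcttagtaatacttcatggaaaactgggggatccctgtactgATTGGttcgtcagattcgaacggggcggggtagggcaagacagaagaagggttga
Insig1 (chr5:28071212-28071411, plus strand): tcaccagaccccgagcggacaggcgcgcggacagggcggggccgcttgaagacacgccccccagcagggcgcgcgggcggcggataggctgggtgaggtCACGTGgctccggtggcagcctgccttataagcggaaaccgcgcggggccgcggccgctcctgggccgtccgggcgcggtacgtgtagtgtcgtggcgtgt

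RefSeq windows of 300 bases across the start were found for 26 of the members by symbol. None was found for Fdps, Fdft1, Sqle, Stard4, Abcg1, Scd1, Scd2 and Fads1. CCAAT on either strand occurred in 20 of these 26 genes, and in 14 of the 15 sterol enzymes with a window (Hmgcs1 included). It occurred among genes that fell (Idi1, Mvd, Msmo1) and genes that rose (Ebp, Insig1) alike. In Insig1 it lies outside the 200 bases printed above. Counted by window, 61.8% of 34 member windows held it, against 37.4% of all 32851 windows. CACGTG occurred in 6 of the 26 genes, by window in 20.6% against 7.15% of all; its site in Insig1 is the capital stretch above. The sterol response element core searched as TCACNCCAC occurred in 1 member, Hmgcs1, and in 1.24% of all windows. The G-rich run GGGGAGGGG occurred in 1, Elovl6, and in 6.37% of all. A match describes letters in a window and is not a site of binding.

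From cXENp1 to cXENp3 the lines parted. In the KO lines 10 members were called, 2 higher and 8 lower, against 21.3% of genes called (12.5% higher and 8.80% lower). The 8 feeder fibroblast markers moved too: they summed to 17.9 and 10.4 FPKM in the KO lines at cXENp1, against 280.1 and 366.4 at cXENp3, and 5 of the 8 were called higher. Their part in the members' result was not tested. Fads2 fell from 62.2 to 8.88 FPKM in KO3.34 and from 47.3 to 8.38 in KO2.6 (log2 change -2.52, SE 0.29, adjusted p 0.000426). Fdps fell from 87.4 to 37.4 FPKM and from 97.6 to 30.6 in the same lines (log2 change -1.42, SE 0.37, adjusted p 0.0237). Acaca, Dhcr7, Acat2, Sqle, Fads1 and Fdft1 also fell, and Insig1 (log2 change 1.74, adjusted p 0.0225) and Abca1 (1.83, adjusted p 0.0479) rose. Abca1 was not called with a pseudocount of 0.1 (adjusted p 0.0691) or with every gene above 0 kept (adjusted p 0.0867). Fdft1 was not called with line as a block (adjusted p 0.0639), with which Ebp was called higher (0.89, adjusted p 0.0206) and Idi1 and Sc4mol lower (adjusted p 0.0425 and 0.0298). With any 1 line left out a group holds 1 library, and calls fell among members and over all genes alike.

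In the Zfp281-present lines no member was called from cXENp1 to cXENp3 (limma, 0 of 33, with 6 at an unadjusted p under 0.05, as were 28.7% of all genes), against 10.9% of genes (4.91% higher and 6.01% lower). WT3 and Rescue3.34 moved unequally. In WT3 26 of 33 members went up, with a median of 0.37, while Rescue3.34 had 17 up and 16 down. Fdps went from 56.8 to 136 FPKM in WT3 and from 133 to 113 in Rescue3.34. Fads1, at -0.76, was called with line as a block (adjusted p 0.0486) and after quantile normalization (adjusted p 0.0196). Without the Rescue3.34 cXENp3 library, which leaves WT3 alone at that stage, Srebf2 changed by 0.94. With 1 KO line left out, calls rose among members and over all genes alike.

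The difference between these courses was tested as an interaction. It was called for 8 members, 1 higher and 7 lower in KO, against 11.4% of genes (7.19% higher and 4.26% lower). The 7 were Fdps (-1.93, SE 0.53, adjusted p 0.0436), Fads2, Mvd, Dhcr7, Acat2, Fdft1 and Sqle, and the higher one was Abca1 (3.06, SE 0.82, adjusted p 0.0407). Fdps was not called with line as a block (adjusted p rounding to the threshold of 0.05). Insig1 rose in KO but had an interaction of 0.30 (SE 0.64, adjusted p 0.772), since it was also higher at cXENp3 than at cXENp1 in WT3 (39.9 against 9.95 FPKM) and Rescue3.34 (25.7 against 12.6). Sc4mol was called with that block (-1.43, adjusted p 0.0314). In 10 members both KO lines had lower and both Zfp281-present lines higher values at cXENp3 than at cXENp1, against 12.3% of 13191 genes: Acat2, Cyp51, Dhcr7, Elovl6, Fasn, Fdft1, Idi1, Mvd, Sc4mol and Srebf2. Rescue3.34 differed by less than 0.1 in 4 of these, Cyp51, Fasn, Idi1 and Srebf2. Abca1, Insig2 and Sc5d split the opposite way, as did 12.6% of genes. The interaction calls changed with the lines fitted. With 1 line left out a group holds 1 library, and calls over all genes rose and fell with those of the members. With every gene above 0 kept the interaction called 4 members, against 6.22% of 18962 genes. Abca1, Fdps, Sqle and Mvd were then not called (limma, adjusted p 0.0564 to 0.0788). Without the Rescue3.34 cXENp3 library, the interaction was 3.03 for Abca1, -2.06 for Fdps, -1.30 for Sqle and -1.32 for Srebf2.

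**Figure D3:**
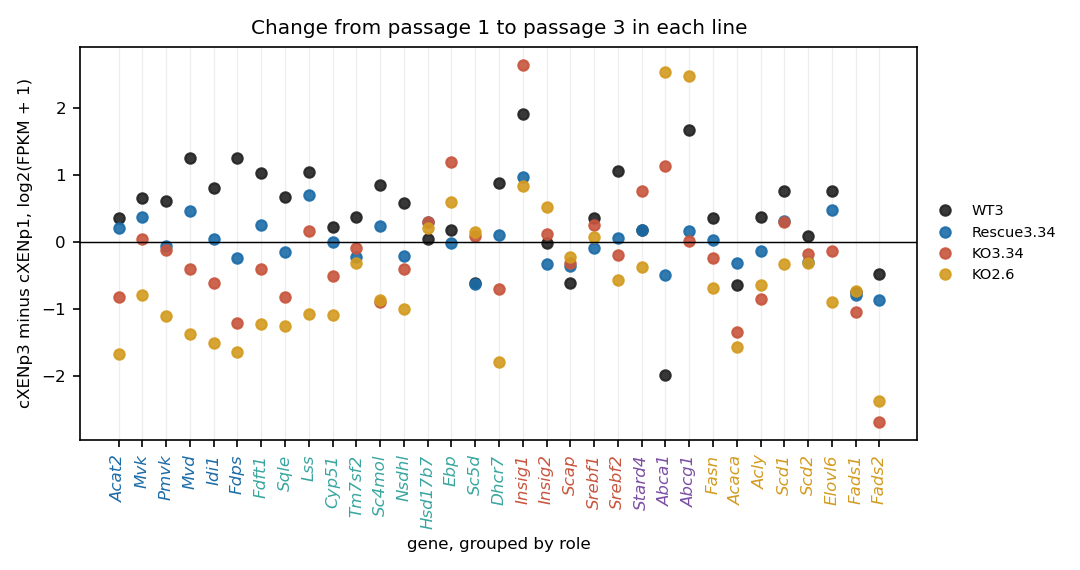
Change in log2(FPKM + 1) from cXENp1 to cXENp3 for each of the 33 members (gene names coloured by role) in each of the 4 lines, 1 point per line. For Acat2, Mvd, Fdft1 and Dhcr7 both KO points lie below 0 and both Zfp281-present points above it, and Insig1 is above 0 in all 4 lines.

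**Figure D4:**
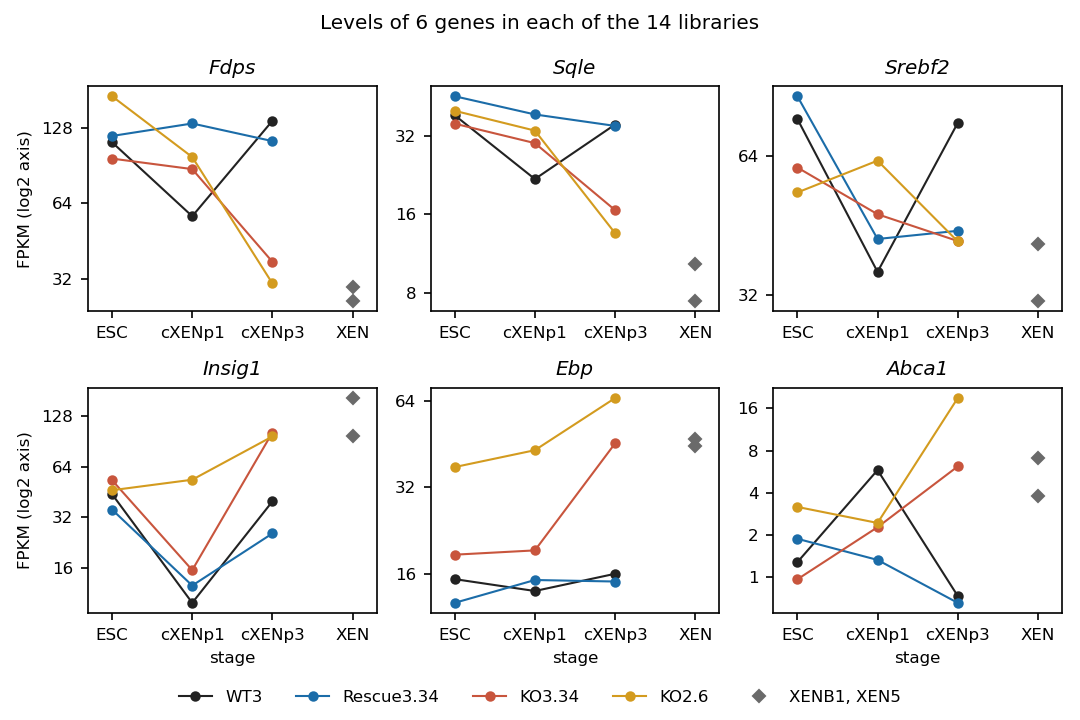
FPKM on a log2 axis of 6 members at ESC, cXENp1 and cXENp3 in the 4 lines (lines join libraries of 1 line) and in the XEN lines (diamonds, 1 library each). At cXENp3 the KO lines part from WT3 and Rescue3.34 downward for Fdps and Sqle and upward for Insig1, Ebp and Abca1, while Srebf2 is high in WT3 only.

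Other genes of sterol and fatty acid metabolism were read from a list of 32, of which 31 were tested. At cXENp3 18 of the 31 were called between KO and Zfp281-present lines, 13 higher and 5 lower, beside the 41.9% of all genes called there (22.9% higher and 19.0% lower). Elovl1, an elongase of very long chains, was higher in KO by 2.71 (adjusted p 0.00208). Me1, the malic enzyme that supplies NADPH, was higher by 2.54 (adjusted p 0.000633), and Soat1, which esterifies cholesterol for storage, by 2.32 (adjusted p 0.00131). Lpin1, a phosphatidate phosphatase, was higher by 1.66 (adjusted p 0.00763), and Lbr, a nuclear envelope protein with sterol reductase activity, was lower (-1.81, adjusted p 0.0255).

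At cXENp1 against ESC 5 of the 31 were higher and 2 lower, beside the 28.5% of all genes called there (14.7% higher and 13.8% lower). Plin2, which coats lipid droplets, had between 12.6 and 20.5 FPKM in ESCs and between 76.1 and 129 at cXENp1 (log2 change 2.62, SE 0.37, adjusted p 0.00155). Lipa, the lysosomal acid lipase (1.75, adjusted p 0.024), Acsl4, an acyl-CoA synthetase (1.29, adjusted p 0.0034), and Elovl1 (1.15, adjusted p 0.041) were higher too, and Acacb, the mitochondrial carboxylase form, was lower (-1.37, adjusted p 0.00187).

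Markers of lipid-rich cell types were also read. Adipoq, Plin1, Fabp4, Alb and Apoa1 were each below 1 FPKM in every library except Apoa1 in KO2.6 at cXENp1, with 7.02 FPKM. Ttr had 72.6 FPKM in XEN5 and at most 9.51 elsewhere.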

How the data were processed

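PolyA RNA-seq was performed in 14 mouse libraries. The deposited values were made by the authors with STAR 2.5.3 and Cufflinks 2.1.1 on mm9, per the submitters' processing notes, and were taken as FPKM, the unit Cufflinks reports, since the unit itself is not given in the sources used here. Nor are the annotation, filters and strand setting. No counts are given, so no interval or detection limit was computed. Loci were shifted to count from 1.

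Tests used log2(FPKM + 1), a scale on which changes of low genes are understated. Genes with at least 1 FPKM in at least 2 fitted libraries were kept. limma (3.58.1, R 4.3.3; lmFit, eBayes with trend, two-sided) was fitted over all kept genes in 9 comparisons, with Benjamini-Hochberg adjustment over all genes and a threshold of 0.05. XEN against ESC used 6 libraries. cXENp1 against ESC used 12 libraries and the 4 lines as blocks. Comparisons of KO used the 12 libraries in 6 groups of 2, and KO against XEN all 14. Line pairs the libraries by the cell line in the labels; deviations of lines within a Zfp281 status correlated between stages at -0.21 to 0.34 over 13386 genes. Named are Srebf2, Srebf1, Scap, Insig1 and Insig2, up to 8 called members with the largest change per comparison, and up to 6 called genes of the wider list in each of 2 comparisons; others were named after their values were seen. Some genes of the wider list are not reported here. Members and lists were chosen with earlier results of these data known. Alternatives were a pseudocount of 0.1, 2 other filters (any value above 0, mean of at least 5 FPKM), quantile normalization, the description prefix as a term, the line block added or removed, and each line left out; 3 were added after the data were seen. The fits were run on simulated data with 200 genes changed by 2 on the log2 scale and no line effect. They recovered 46.5% of these in the interaction, 68% in XEN against ESC and 77% to 81.5% in the other comparisons. Figures were drawn with matplotlib 3.10.9.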

Additional observations from a re-analysis of the deposited data

Results flagged for a closer look

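From cXENp1 to cXENp3, 8 members changed differently in KO and Zfp281-present lines by the interaction in limma (KO minus Zfp281-present change on the log2 scale): Fdps (-1.93, adjusted p 0.0436), Fads2 (-1.85, adjusted p 0.0227), Mvd (-1.74, adjusted p 0.0339), Dhcr7 (-1.74, adjusted p 0.0255), Acat2 (-1.52, adjusted p 0.0244), Fdft1 (-1.45, adjusted p 0.032), Sqle (-1.29, adjusted p 0.0466) and Abca1 (3.06, adjusted p 0.0407). Abca1, Fdps, Sqle and Mvd were not called with every gene above 0 kept (limma, adjusted p 0.0564 to 0.0788). For all 8 the changes of the KO lines did not overlap those of the Zfp281-present lines. The members had been picked by this test, so this describes them and adds no support. The share of all genes whose changes did not overlap was not computed.

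Single ESC libraries lay far from the other 3 lines in 5 of 66 sets of 4 libraries (33 members at ESC and at cXENp1), where chance flags about 1 in 20. KO2.6 was low for Fads2 (11.6 FPKM) and Abcg1 (0.640 FPKM) and high for Pmvk (109.9 FPKM). KO3.34 was low for Acly (74.2 FPKM) and high for Insig2 (20.8 FPKM).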

How the results depend on the processing

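With a line or library left out, the number of called members ranged from 9 to 21 for XEN against ESC (18 with all lines), 2 to 8 for cXENp1 against ESC (6), 0 to 9, 0 to 4 and 2 to 19 for KO against Zfp281-present lines at ESC (0), cXENp1 (0) and cXENp3 (15), 5 to 9 for cXENp1 to cXENp3 in KO (10), 0 to 5 in Zfp281-present lines (0), 0 to 10 for the interaction (8) and 0 to 2 for KO cXENp3 against XEN (1). These ranges moved with the calls over all genes, except for cXENp1 to cXENp3 in KO. In each other comparison the fit with the most genes called had the highest member count, and the fit with the fewest the lowest. For XEN against ESC, 21 members went with 50.8% of genes (without KO2.6) and 12 with 33.7% (without WT3). For cXENp1 against ESC, 8 went with 29.3% (without KO2.6) and 2 with 10% (without KO3.34). With 1 library left in a group, that library is assumed to vary like the others. Among 49 counts under the other alternatives, 42 stayed within 1.5 times. The 7 that did not were cXENp1 against ESC with the prefix as a term (2) and with only 2 stages fitted (14), KO against Zfp281-present ESCs with the replicate block (1), the Zfp281-present course after quantile normalization (1) and with the replicate block (1), the interaction with every gene above 0 kept (4), and KO cXENp3 against XEN after quantile normalization (0). The replicate block moved no other member count by over 1.5 times (12 in the KO course, 15 at cXENp3, 8 in the interaction), and it ended the calls of Fdps in the interaction, Acly at cXENp3 and Fdft1 in the KO course and added those given beside the results. Fitted without its block, cXENp1 against ESC lost Insig1 (adjusted p 0.0935) and Sc5d (adjusted p 0.134). The cause of these shifts was not tested. No called member changed sign under any alternative. Over all genes, called counts moved by over 1.5 times in cXENp1 against ESC (3760; 2369 with a mean of at least 5 FPKM, 439 with the prefix, 5834 with 2 stages), in KO ESCs (260; 160 after quantile normalization, 21 with the prefix), at cXENp1 (64; 19 with a pseudocount of 0.1, 136 with every gene above 0, 13 with the mean filter, 100 after quantile normalization, 102 with the prefix), and with the mean filter in the KO course (2806; 1711), the Zfp281-present course (1441; 838) and KO against XEN (551; 236). With a line or library left out, 32 of 45 such counts moved as far. Unknown depth leaves the precision of low genes such as Abca1 unstated.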
